A study of Homo sapiens with 24 samples.

Results

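Transcripts of 10 genes that encode subunits of SWI/SNF chromatin remodelling complexes were followed across 4 human lung cancer cell lines in which HEPACAM2 had been manipulated. The genes are SMARCA2, SMARCA4, ARID1A, ARID1B, ARID2, PBRM1, SMARCB1, SMARCC1, SMARCC2 and SMARCD3, which are 10 of the 60668 genes in the largest tables. They were chosen by family around SMARCA2 and selected on its log2 fold changes in these same libraries, which were known to have opposite signs in the overexpression lines and the lines labelled CRISPR. The differences between treated and control libraries of all 10 are therefore given as a description, with standard errors and without p-values. All 10 were tested in all 4 lines, since each passed the filter on low values (1 group or both averaging 10 or more normalized counts).

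SWI/SNF complexes use the energy of ATP to slide or evict nucleosomes, which opens promoters and enhancers to transcription factors. A complex carries either SMARCA2 (BRM) or SMARCA4 (BRG1) as its motor and a core scaffold of SMARCC and SMARCD subunits. Variable subunits define the canonical BAF, PBAF and non-canonical BAF forms, and SMARCB1 is absent from the non-canonical form. In lung cancer the family is known for recurrent inactivation of SMARCA4 and ARID1A, and cells without SMARCA4 are known to depend on SMARCA2.

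HEPACAM2 is a membrane protein of the immunoglobulin superfamily, and the series addresses its part in cell-matrix interactions of small cell lung cancer. A549 and H1299 are non-small cell lines known to lack SMARCA4 function; in each, 3 libraries with the genotype label HEPACAM2 overexpressed (OE) were set against 3 controls labelled WT. DMS454 and H1694 are small cell lines; in each, 3 libraries titled CRISPR, with the genotype label HEPACAM2 knockdown, were set against 3 titled control and labelled WT. The labels state independent biological replicates but give no vector, promoter, guide or clone. Strand-specific libraries of total RNA were sequenced, and the deposited values are read counts divided by a size factor per library, called normalized counts here.

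HEPACAM2 itself was read first. A549 OE libraries held 6074, 5864 and 6084 normalized counts, against 1.10, 0 and 0 in the A549 controls. H1299 OE libraries held 27257, 24999.9 and 23710.2, against 3.49, 3.07 and 2.08 in the H1299 controls. The overexpression labels thus matched the transcript, but the CRISPR labels did not. DMS454 libraries labelled CRISPR held 11460.0, 11256 and 10844, against 6430.1, 6543 and 6677 in those labelled control. H1694 libraries labelled CRISPR held 10124, 10545 and 10399, against 3433, 3551 and 3688 in those labelled control. HEPACAM2 mRNA was higher in every library labelled CRISPR than in any labelled control of its line, so both arms of DMS454 and H1694 are called by their labels, and every sign there is labelled CRISPR minus labelled control. If the labels of these arms were exchanged, every such sign would turn round. The sample descriptions call OE libraries Hp and their controls Lv. They call libraries titled CRISPR pL and those titled control G, written G2 in DMS454 and G6 in H1694. They do not say what the letters or these digits stand for. The authors' deposited fold changes set Hp over Lv and G over pL. Which arm was edited was not tested.

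The 24 libraries held 12704476 to 31770858 reads. Replicates of a group differed by more than sampling noise in every pair. OE replicate 1 and control replicate 1 of H1299, replicate 3 of the DMS454 group labelled CRISPR and replicate 1 of the H1694 group labelled CRISPR lay farthest from the other replicates of their groups, with a chi-square per degree of freedom of 20.3 to 37.6 in every pair that held one of them. All other pairs lay between 1.92 and 8.79. Replicate 3 was the farthest of its group in A549 control (5.70 and 7.98) and in H1694 labelled control (5.85 and 8.79). Neuroendocrine markers (8 genes) summed to 5421 to 6122 TPM (reads per kilobase of transcript, scaled to 1 fixed total in each library) in DMS454 and 1517 to 1683 TPM in H1694, against at most 20.1 TPM in A549 and H1299, and 0 of 6 blood, fibroblast and endothelial markers reached a group mean of 1 TPM in any group. Only 3 of the 8 neuroendocrine and 2 of the 6 blood, fibroblast and endothelial markers are listed in A549, and 5 and 3 in H1299. Of the 6 tuft cell markers, 3 are listed in each of these lines. Epithelial markers (4 genes) summed to 7760.2 to 7994 TPM in A549 OE libraries and to 9640.2 to 9849.8 TPM in A549 controls, and all 4 fell. Tuft cell markers (6 genes, 2 of them at 1 TPM or more) summed to 58.1 to 76.5 TPM in H1299 OE libraries and to 27.3 to 38.2 TPM in H1299 controls, most of it SOX9, which rose; in A549 they summed to 6.42 to 8.18 TPM in OE libraries and to 10.2 to 13.1 TPM in controls. In H1694 libraries labelled CRISPR the epithelial sum was 8.30 to 11.8 TPM, against 12.4 to 12.96 TPM in labelled controls, and the tuft sum was 18.1 to 20.3 TPM, against 14.4 to 15.9 TPM in labelled controls. In DMS454 the epithelial sum was 2625 to 2823 TPM in libraries labelled CRISPR and 2538 to 2597 TPM in those labelled control, and in A549 the neuroendocrine sum was 16.8 to 18.7 TPM in OE libraries and 18.99 to 19.4 TPM in controls. The part of these shifts in the differences of the subunits was not tested.

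The start regions of the 2 motor genes are shown because SMARCA2 is the gene the family was chosen around and SMARCA4 is its alternative, each from 250 bases before to 50 bases after the transcription start in RefSeq (GRCh38.p14). The SMARCA2 window lies at 9:2015097-2015396, plus strand, inside the gene as GENCODE release 29 (GRCh38) draws it, 9:1980290-2193624. The SMARCA4 window lies at 19:10960780-10961079, plus strand, and spans the GENCODE start at 10960825. Capitals mark GC boxes, GGGCGG on either strand, which is the sequence that factors of the Sp family are known to bind.
SMARCA2: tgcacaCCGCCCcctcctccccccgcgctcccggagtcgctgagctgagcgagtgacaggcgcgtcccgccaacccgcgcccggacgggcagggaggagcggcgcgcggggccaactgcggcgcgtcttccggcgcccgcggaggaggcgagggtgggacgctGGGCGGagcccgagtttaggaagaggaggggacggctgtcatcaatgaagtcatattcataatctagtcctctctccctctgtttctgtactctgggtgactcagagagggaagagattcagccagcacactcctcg
SMARCA4: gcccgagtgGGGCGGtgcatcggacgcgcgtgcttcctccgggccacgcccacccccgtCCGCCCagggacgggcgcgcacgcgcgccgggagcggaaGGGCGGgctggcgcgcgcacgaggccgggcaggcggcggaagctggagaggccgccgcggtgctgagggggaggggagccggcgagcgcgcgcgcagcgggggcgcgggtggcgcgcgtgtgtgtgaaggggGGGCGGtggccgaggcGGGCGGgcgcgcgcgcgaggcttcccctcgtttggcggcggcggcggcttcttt
The window of SMARCA2 had a GC content of 66.7% and 2 GC boxes, and that of SMARCA4 a GC content of 81.3% and 5 GC boxes. Over all 35116 RefSeq start windows of this length, the median GC content was 58.7% and 45% held at least 1 GC box. Neither window held the CCAAT box (CCAAT, in 34.6% of all windows on either strand) or the TATA box (TATAAA, in 11.5%). Of the other members, ARID1A, ARID1B, PBRM1, SMARCB1 and SMARCD3 also had a window in the table; ARID1A held 3 GC boxes, PBRM1, SMARCB1 and SMARCD3 held 1 each, and ARID1B held none. The CCAAT box was found in ARID1B, PBRM1 and SMARCB1. A match of letters is a description of the window and not a site of binding.

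Across the 4 lines SMARCA2 was the member that differed from its controls in every line, higher in OE libraries of A549 and H1299 and lower in libraries labelled CRISPR of DMS454 and H1694. The second large difference was SMARCD3 in H1299, and every other value but that of SMARCC2 in H1299 lay within 0.3 of 0 on the log2 scale. In A549, 5 members had all 3 OE libraries above all 3 controls and 1 had them below, where 26.1% of all 16707 tested genes lay above, 25.7% below and 51.8% either way. In H1299, 3 members lay above and 3 below (20.5% and 22.8%, or 43.3% either way, of 16192 genes). In DMS454, no member lay above and 3 lay below (18.3% and 18.4%, or 36.6% either way, of 18868 genes), and in H1694, 2 lay above and 1 below (17.4% and 17.6%, or 35% either way, of 17780 genes). At an adjusted p under 0.05 by limma, 6 members were called higher in A549 and 3 in H1299, while 2 were called lower in DMS454 and 1 in H1694. Of all tested genes, 22.5% were called higher and 21.9% lower in A549, 13.5% higher and 15.3% lower in H1299, 9.15% higher and 9.72% lower in DMS454, and 8.73% higher and 8.9% lower in H1694; since these contrasts chose the members, nothing is read from the counts. Without OE replicate 1 and control replicate 1 the H1299 count was 4 higher and 2 lower, and without replicate 1 of the group labelled CRISPR the H1694 count was 2 higher and 1 lower. The shares above are from the fits with every library. In H1299, 8922 genes were called in all without both libraries numbered 1, against 4665 with every library. In H1694, 1835 to 4510 genes were called in all with any 1 library left out, against 3134 with every library.

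The median log2 fold change of the 10 members was 0.19 in A549, 0.01 in H1299, -0.03 in DMS454 and 0.06 in H1694, while that of all tested genes was -0.0019, 0.0018, 0.00036 and -0.00096. The members ranged from -0.08 to 0.29 in A549, from -0.20 to 1.24 in H1299, from -0.74 to 0.12 in DMS454 and from -0.49 to 0.15 in H1694. The median absolute log2 fold change of all tested genes was 0.21 in A549, 0.28 in H1299, 0.16 in DMS454 and 0.14 in H1694. By this measure 5 of 10 members in A549, 7 in H1299, 8 in DMS454 and 8 in H1694 lay no farther from 0 than the median tested gene of their line.

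**Figure D1:**
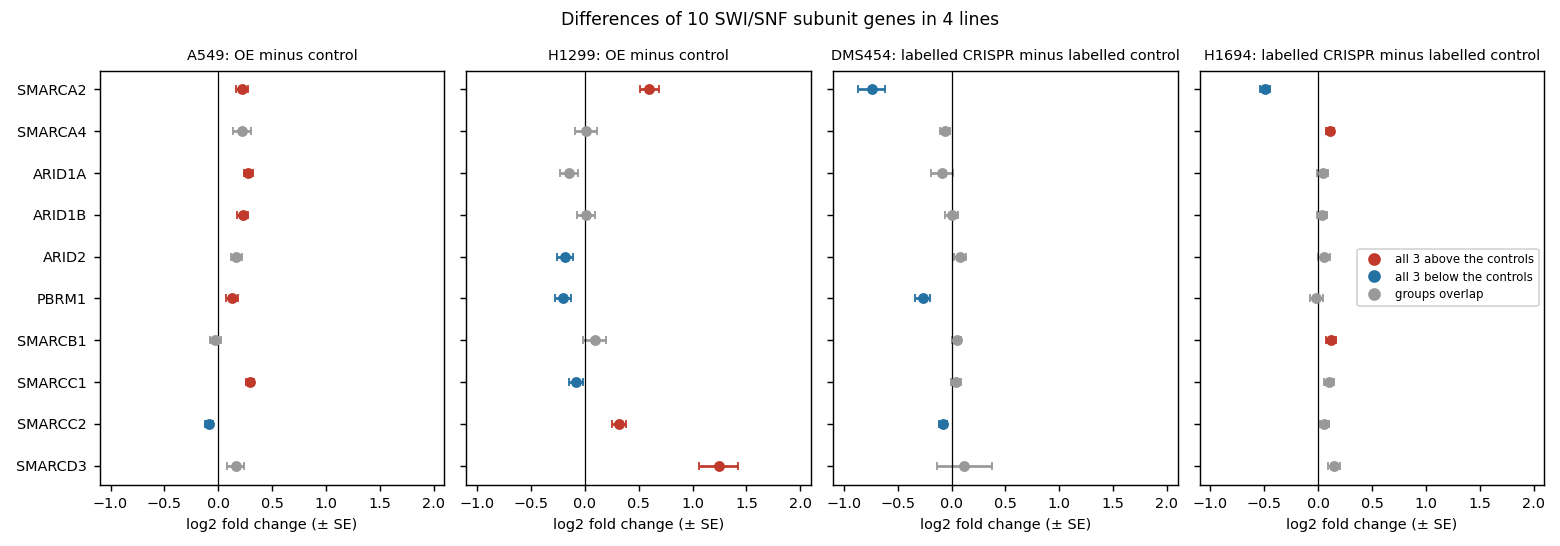
Log2 fold change with its standard error (x axis) of the 10 SWI/SNF genes (rows) in 4 lines, treated minus control; red points have all 3 treated libraries above the controls, blue points all 3 below, grey points overlap. SMARCA2 stands at 0.22 and 0.60 in A549 and H1299 and at -0.74 and -0.49 in DMS454 and H1694 as labelled, and SMARCD3 in H1299 at 1.24.

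SMARCA2 encodes one of the 2 mutually exclusive ATPases. A549 OE libraries held 869, 844 and 843 normalized counts of SMARCA2, against 736, 730.2 and 728 in A549 controls, a log2 fold change of 0.22 ± 0.05 (SE). H1299 OE libraries held 701, 668 and 630.0, against 447, 423 and 447 in H1299 controls, a log2 fold change of 0.60 ± 0.09 (SE). In bulk RNA, fewer cells of a kind and less RNA per cell cannot be told apart. All 3 OE libraries lay above all 3 controls in both lines, and the H1299 value was 0.57 without both libraries numbered 1.

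In the small cell lines the SMARCA2 difference had the other sign as labelled. DMS454 libraries labelled CRISPR held 390.1, 416 and 574, against 730.4, 794 and 752 in those labelled control, a log2 fold change of -0.74 ± 0.13 (SE). Replicate 3, the library that stood apart, was the highest of the group labelled CRISPR but still below every labelled control, and without it the log2 fold change was -0.91. H1694 libraries labelled CRISPR held 2331, 2185 and 2147, against 3104, 3227 and 3040.3 in those labelled control, a log2 fold change of -0.49 ± 0.05 (SE). Here the value was -0.53 without replicate 1 of the group labelled CRISPR. Set against the HEPACAM2 transcript and not the labels, libraries with more HEPACAM2 mRNA had more SMARCA2 in A549 and H1299 and less SMARCA2 in DMS454 and H1694. Among all tested genes of its line, SMARCA2 stood at percentile 78.0 of the signed log2 fold changes in A549, 87.6 in H1299, 3.76 in DMS454 and 5.94 in H1694.

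The authors' deposited table gives SMARCA2 a log2 fold change of 0.22 in A549 and 0.60 in H1299, OE over control. For DMS454 and H1694 the authors' deposited table gives 0.72 and 0.49, in the direction of titled control over titled CRISPR, which is the reverse of the direction used here.

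SMARCA4 encodes the other ATPase. A549 OE libraries held 374, 359 and 438 normalized counts of SMARCA4, against 302, 327 and 374 in A549 controls, and the groups overlapped at a log2 fold change of 0.22 ± 0.08 (SE). That value ran from 0.14 without OE replicate 3 to 0.31 without control replicate 3, and SMARCA4 was among the 6 members called in A549 in 10 of 16 settings. H1299 OE libraries held 439.7, 515 and 516, against 520.0, 446 and 491 in H1299 controls, a log2 fold change of 0.01 ± 0.10 (SE). The H1299 groups overlapped throughout, and the value ran from -0.25 with each library's GC trend removed to 0.14 without both libraries numbered 1. DMS454 libraries labelled CRISPR held 4026, 4324 and 3992, against 4341, 4303 and 4234 in those labelled control, an overlap with a log2 fold change of -0.06 ± 0.04 (SE). H1694 libraries labelled CRISPR held 10183, 9981 and 9665, against 9198, 9341 and 9138 in those labelled control, all 3 above the labelled controls at a log2 fold change of 0.11 ± 0.04 (SE). The groups were thus separated for SMARCA4 in H1694 alone, where its difference had the opposite sign to that of SMARCA2.

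Levels of the 2 ATPase transcripts were compared per length as TPM, computed from the recovered reads and the length of the transcript with the longest coding sequence. The 4 tables were normalized separately, so levels across lines are set side by side without a test. SMARCA4 reached 6.90 ± 0.778 TPM in A549 OE and 5.85 ± 0.583 TPM in A549 controls, 10.5 ± 1.08 TPM in H1299 OE and 9.78 ± 0.718 TPM in H1299 controls (SD, n = 3). In DMS454 it reached 72.3 ± 5.83 TPM in libraries labelled CRISPR and 73.7 ± 1.17 TPM in those labelled control, and in H1694 159.9 ± 8.97 TPM in libraries labelled CRISPR and 154 ± 3.74 TPM in those labelled control (SD, n = 3). The SMARCA4 transcript was thus present in the 2 lines known to lack its function, at a level below that of both small cell lines. SMARCA2 reached 14.1 ± 0.102 TPM in A549 OE, 12.03 ± 0.258 TPM in A549 controls, 13.4 ± 0.711 TPM in H1299 OE and 8.31 ± 0.199 TPM in H1299 controls (SD, n = 3). In DMS454 SMARCA2 reached 7.56 ± 1.35 TPM in libraries labelled CRISPR and 12.2 ± 0.713 TPM in those labelled control, and in H1694 33.6 ± 2.44 TPM in libraries labelled CRISPR and 49.0 ± 2.07 TPM in those labelled control (SD, n = 3). SMARCA2 controls of A549 and DMS454 did not differ beyond their spread, while H1299 controls lay below them and H1694 controls above them.

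**Figure D2:**
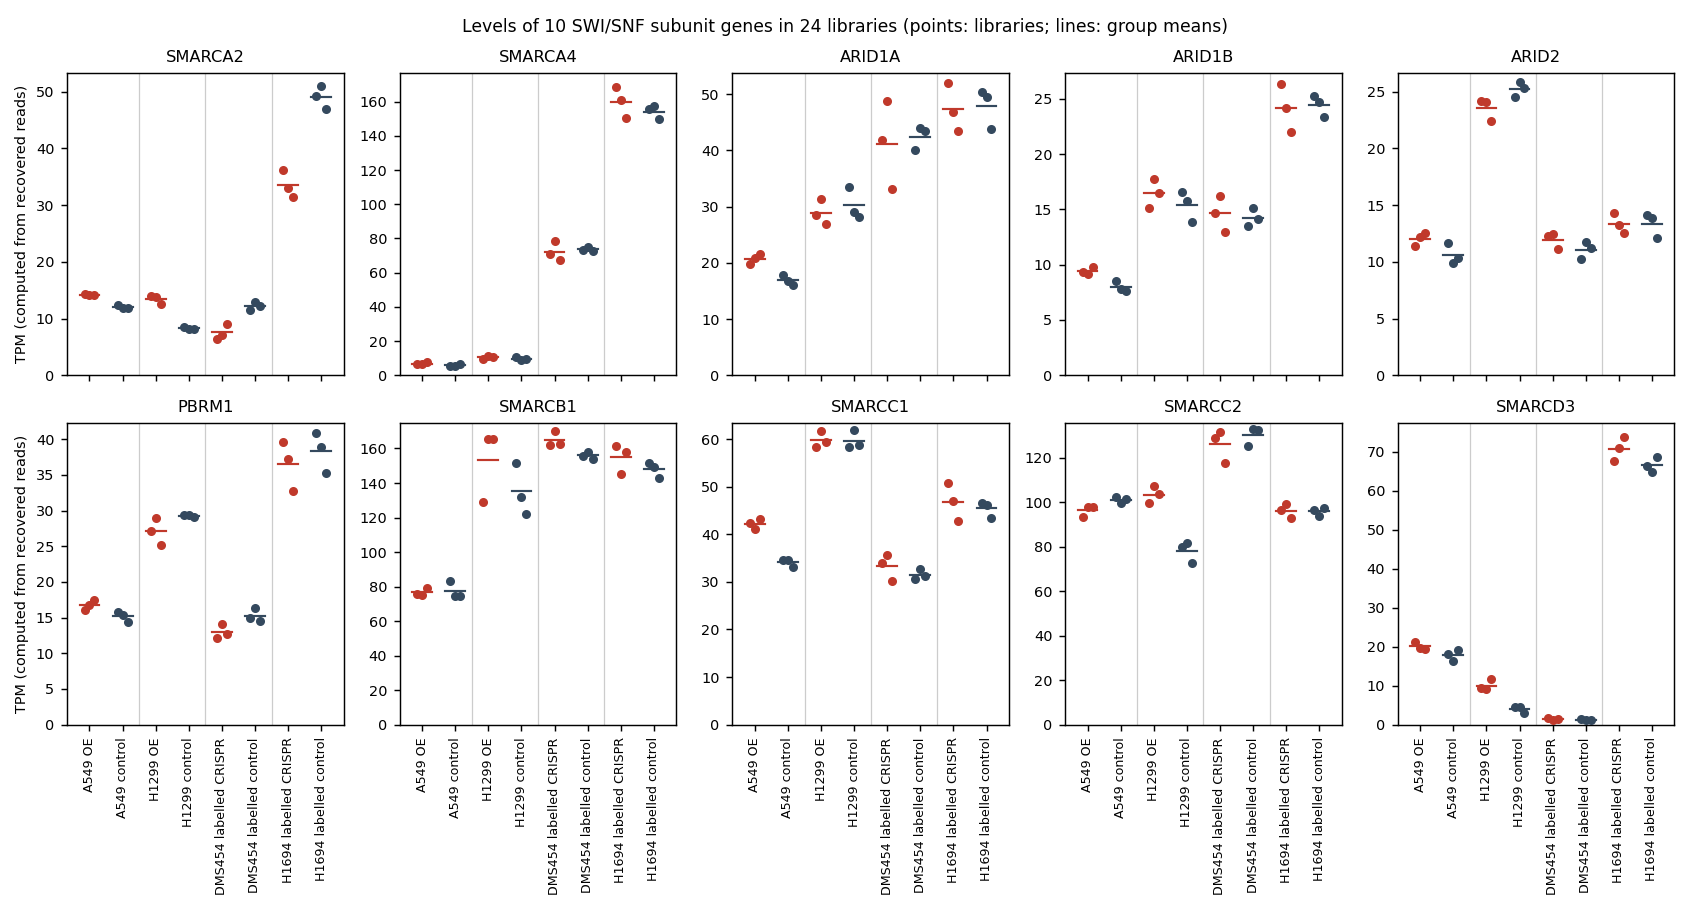
TPM (y axis, from 0) of each of the 10 genes in the 24 libraries; red points are OE or labelled CRISPR libraries, dark points controls, and short lines group means of 3. SMARCA4 controls average 5.85 TPM in A549 and 9.78 TPM in H1299 but 73.7 TPM in DMS454 and 154 TPM in H1694, and SMARCD3 controls run from 1.23 TPM in DMS454 to 66.5 TPM in H1694.

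The mixture of motors was read as the share of SMARCA2 in the summed reads of SMARCA2 and SMARCA4 per kilobase of exons, a ratio within a library that no scaling of the table can move. In A549 the share was 66.3%, 66.6% and 62.02% in OE libraries and 67.4%, 65.5% and 62.3% in controls, and the groups overlapped. In H1299 it was 57.5%, 52.4% and 50.9% in OE libraries and 42.2%, 44.6% and 43.6% in controls, with all 3 OE libraries above all 3 controls. By this length SMARCA2 thus made up the larger part of the ATPase transcripts in every A549 library and in the H1299 OE libraries. It made up the smaller part in the H1299 controls. The 95% intervals of H1299 OE replicates 2 and 3 ran from 49.0% to 55.7% and from 48.1% to 53.7%. By the coding length the highest H1299 control reached 50.1%. Which ATPase was the larger in H1299 was thus within counting error in some libraries and depended on the length. In DMS454 the share was 7.60%, 7.55% and 10.9% in libraries labelled CRISPR and 12.5%, 13.5% and 13.1% in those labelled control. In H1694 it was 16.3%, 15.7% and 15.9% in libraries labelled CRISPR and 22.3%, 22.7% and 22.0% in those labelled control. Both small cell lines had every library labelled CRISPR below every labelled control, and SMARCA4 made up most of the ATPase transcripts in all of their libraries. The exact 95% binomial interval of a library's share reached at most 3.40 percentage points to either side and covers counting error only.

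**Figure D3:**
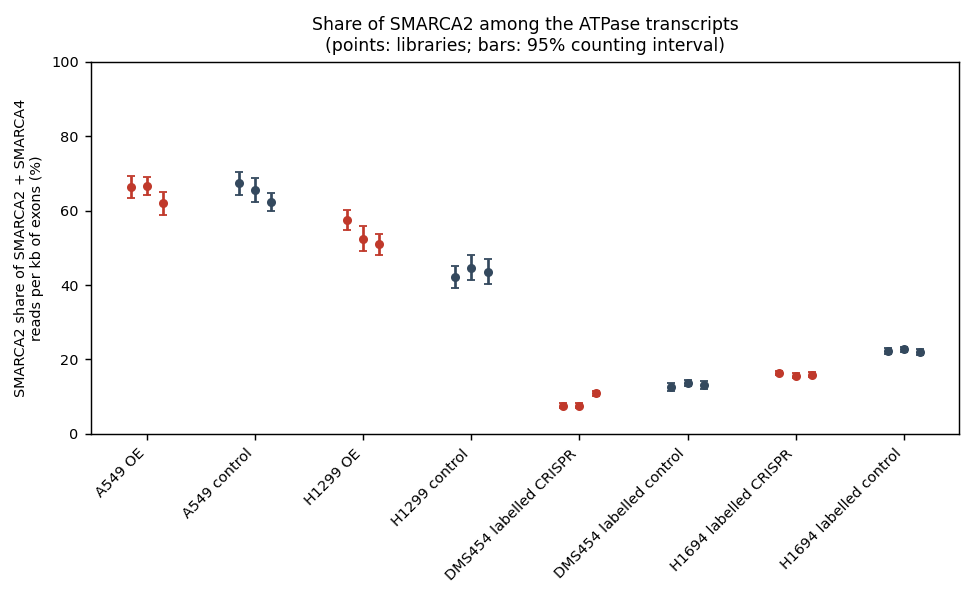
Share of SMARCA2 among SMARCA2 and SMARCA4 reads per kilobase of exons (y axis, percent) in each library, with 95% exact binomial intervals as bars; red points are OE or labelled CRISPR libraries and dark points controls. A549 groups overlap between 62.02% and 67.4%, H1299 OE lies above its controls, and both groups labelled CRISPR lie below their labelled controls.

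SMARCC1 and SMARCC2 (BAF155 and BAF170) pair up as the scaffold on which the complex assembles. SMARCC1 held 2803, 2678 and 2808 normalized counts in A549 OE libraries, against 2246, 2315 and 2201 in A549 controls, a log2 fold change of 0.29 ± 0.04 (SE) and the highest among the members in that line. SMARCC2 held 3989, 4119 and 4098 in A549 OE libraries, against 4275, 4308 and 4348 in A549 controls, a log2 fold change of -0.08 ± 0.04 (SE). In A549 all OE libraries lay above the controls for SMARCC1 and below them for SMARCC2. In H1299 the order was the reverse. SMARCC1 held 3202, 3263 and 3234 normalized counts in H1299 OE libraries, against 3318, 3469.6 and 3487 in H1299 controls, a log2 fold change of -0.08 ± 0.06 (SE). SMARCC2 held 3522, 3651 and 3639 in H1299 OE libraries, against 2929, 2959 and 2789 in H1299 controls, a log2 fold change of 0.32 ± 0.07 (SE). The share of SMARCC1 in the pair, per kilobase of exons, was 43.2 ± 0.977% in A549 OE and 36.9 ± 0.703% in A549 controls, and 50.1 ± 0.295% in H1299 OE and 57.0 ± 1.22% in H1299 controls (SD, n = 3). Per kilobase of the transcript with the longest coding sequence it was 30.5 ± 0.842% in A549 OE and 25.2 ± 0.569% in A549 controls, and 36.7 ± 0.274% in H1299 OE and 43.3 ± 1.23% in H1299 controls (SD, n = 3). Both shifts kept their direction by either length and were larger than the replicate spread and the counting error of a library's share, at most 1.37 percentage points by exons. Which paralogue was the larger in H1299 controls depended on the length.

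In the small cell lines the shifts of the shares within this pair were smaller. SMARCC1 held 2221, 2273 and 2069.8 normalized counts in DMS454 libraries labelled CRISPR, against 2104, 2167 and 2099.6 in those labelled control, an overlap at a log2 fold change of 0.04 ± 0.05 (SE). SMARCC2 held 5439, 5406 and 5219 in DMS454 libraries labelled CRISPR, against 5548, 5692 and 5752 in those labelled control, all 3 below at a log2 fold change of -0.08 ± 0.04 (SE). In H1694 both overlapped, at 0.10 ± 0.05 (SE) for SMARCC1 and 0.06 ± 0.04 (SE) for SMARCC2. The SMARCC1 share by exons was 31.4 ± 0.628% in DMS454 labelled CRISPR and 29.6 ± 0.484% in labelled control, and 45.8 ± 1.80% in H1694 labelled CRISPR and 45.1 ± 1.27% in labelled control (SD, n = 3). By the transcript it was 20.9% in DMS454 labelled CRISPR and 19.5% in labelled control, and 32.7% in H1694 labelled CRISPR and 32.1% in labelled control. By either length every DMS454 library labelled CRISPR had a higher SMARCC1 share than every labelled control. By exons the lowest was 30.7% in libraries labelled CRISPR and the highest 29.9% in those labelled control. In H1694 the groups overlapped for this share. By the annotation, 6.01% of the exon bases of SMARCC2 lie opposite exons of MYL6, and the sources used here do not state whether the counting used strand.

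SMARCB1 (SNF5) bridges the complex to the nucleosome and is the subunit known to be lost in rhabdoid tumours. Its level was 148 ± 4.43 to 156 ± 1.92 TPM in labelled controls of both small cell lines (SD, n = 3). It was 135 ± 15.0 TPM in H1299 controls and 77.5 ± 5.02 TPM in A549 controls (SD, n = 3). Groups overlapped in A549 at a log2 fold change of -0.03 ± 0.05 (SE) and in DMS454 at 0.05 ± 0.04 (SE). In H1694 SMARCB1 held 3042, 2814 and 3161 normalized counts in libraries labelled CRISPR, against 2796, 2765 and 2715 in those labelled control, all 3 above the labelled controls at 0.12 ± 0.05 (SE). H1299 OE libraries held 1903, 2357 and 2427, against 2323, 1992 and 1953 in H1299 controls, a log2 fold change of 0.09 ± 0.11 (SE). The libraries numbered 1 alone went the other way in H1299, where OE replicate 1 was the lowest OE library and control replicate 1 the highest control; without both the value was 0.28, and with each library's GC trend removed it was -0.14, so no direction is given for H1299. Of the SMARCB1 exon bases, 17.7% lie opposite exons of DERL3.

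SMARCD3 (BAF60C) is a core subunit with 2 paralogues, known for its part in muscle and heart development and in neurons. H1299 OE libraries held 159, 150.0 and 199 normalized counts, against 78.5, 77.7 and 57.2 in H1299 controls, a log2 fold change of 1.24 ± 0.18 (SE) and a ratio of means of 2.38. Every OE library lay well above the highest control, and SMARCD3 stood at percentile 97.6 of all tested genes in H1299. Elsewhere the groups overlapped, at 0.16 ± 0.08 (SE) in A549, 0.12 ± 0.26 (SE) in DMS454 and 0.15 ± 0.06 (SE) in H1694. By the annotation, 11.0% of the SMARCD3 exon bases lie opposite an antisense gene. SMARCD3 was also the member whose level varied most between lines. It reached 20.1 ± 0.965 TPM in A549 OE and 17.9 ± 1.41 TPM in A549 controls, 10.03 ± 1.48 TPM in H1299 OE and 3.98 ± 0.775 TPM in H1299 controls (SD, n = 3). The 2 small cell lines lay at the ends, with 1.39 ± 0.307 TPM in DMS454 labelled CRISPR and 1.23 ± 0.110 TPM in labelled control, and 70.8 ± 3.15 TPM in H1694 labelled CRISPR and 66.5 ± 1.90 TPM in labelled control (SD, n = 3).

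ARID1A and ARID1B are the mutually exclusive large subunits that define canonical BAF. ARID1A held 1762, 1829.8 and 1884 normalized counts in A549 OE libraries, against 1564, 1509.8 and 1434 in A549 controls, a log2 fold change of 0.28 ± 0.05 (SE). ARID1B held 1049.6, 1009 and 1079 in A549 OE libraries, against 935, 890.0 and 858 in A549 controls, a log2 fold change of 0.23 ± 0.05 (SE). Both paralogues had all 3 OE libraries above the controls in A549, and in the other 3 lines both overlapped. ARID1A stood at -0.15 ± 0.09 (SE) in H1299, -0.09 ± 0.10 (SE) in DMS454 and 0.04 ± 0.05 (SE) in H1694, and ARID1B at 0.01 ± 0.08 (SE), 0.00 ± 0.06 (SE) and 0.04 ± 0.05 (SE) in the same lines. The DMS454 value of ARID1A was pulled by replicate 3 of the group labelled CRISPR, which held 3061 normalized counts where replicates 1 and 2 held 3677 and 4175, against 3690.2, 3924 and 3931 in those labelled control. Without that library the value was 0.03.

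ARID2 and PBRM1 are subunits of PBAF, and PBRM1 (BAF180) reads acetylated histones through its bromodomains. ARID2 held 1020.0, 1079.5 and 1106 normalized counts in A549 OE libraries, against 1023, 899 and 932 in A549 controls, an overlap at a log2 fold change of 0.17 ± 0.05 (SE). PBRM1 held 861, 878 and 912 in A549 OE libraries, against 824, 834 and 769.5 in A549 controls, all 3 above the controls at 0.13 ± 0.05 (SE). In H1299 both PBAF genes lay below the controls in all 3 OE libraries. ARID2 held 1798, 1725 and 1650.0 in H1299 OE libraries, against 1887, 1962 and 2033 in H1299 controls, a log2 fold change of -0.19 ± 0.07 (SE). PBRM1 held 1199.7, 1236 and 1102 in H1299 OE libraries, against 1346, 1329 and 1395 in H1299 controls, a log2 fold change of -0.20 ± 0.08 (SE). The pair came apart in DMS454. There PBRM1 held 643, 721 and 707 in libraries labelled CRISPR, against 825, 876 and 788 in those labelled control, all 3 below at -0.27 ± 0.07 (SE), while ARID2 overlapped at 0.08 ± 0.06 (SE). In H1694 both overlapped, ARID2 at 0.06 ± 0.06 (SE) and PBRM1 at -0.02 ± 0.06 (SE).

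The composition of the ARID and SMARCD groups depended more on the line than on the treatment. Per kilobase of the transcript with the longest coding sequence, ARID2 made up 28.5 ± 0.443% of the 3 ARID transcripts in A549 OE and 29.9 ± 1.03% in A549 controls, 34.2 ± 1.40% in H1299 OE and 35.7 ± 2.47% in H1299 controls (SD, n = 3). Its share was 17.8 ± 1.74% in DMS454 labelled CRISPR and 16.3 ± 0.242% in labelled control, and 15.7 ± 0.340% in H1694 labelled CRISPR and 15.6 ± 0.275% in labelled control (SD, n = 3). ARID1A held the largest share in all 8 groups by this length, between 41.9% in H1299 OE and 62.6% in DMS454 labelled control; by the union of exons ARID2 led in H1299, with 46.2% in OE libraries and 47.4% in controls. The share of ARID1B depended on the length used, 22.3% in A549 OE by this transcript and 10.4% by the union of its exons. SMARCD3 made up 12.7 ± 0.536% of the 3 SMARCD transcripts in A549 OE and 11.6 ± 0.959% in A549 controls, and 5.52 ± 0.816% in H1299 OE and 2.58 ± 0.450% in H1299 controls (SD, n = 3). By the union of exons the SMARCD3 share was 7.20% in A549 OE and 6.54% in A549 controls, and 3.03% in H1299 OE and 1.40% in H1299 controls. Its share was at most 0.766% in any DMS454 library, but 33.1 ± 2.50% in H1694 labelled CRISPR and 32.4 ± 1.21% in labelled control (SD, n = 3).

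**Figure D4:**
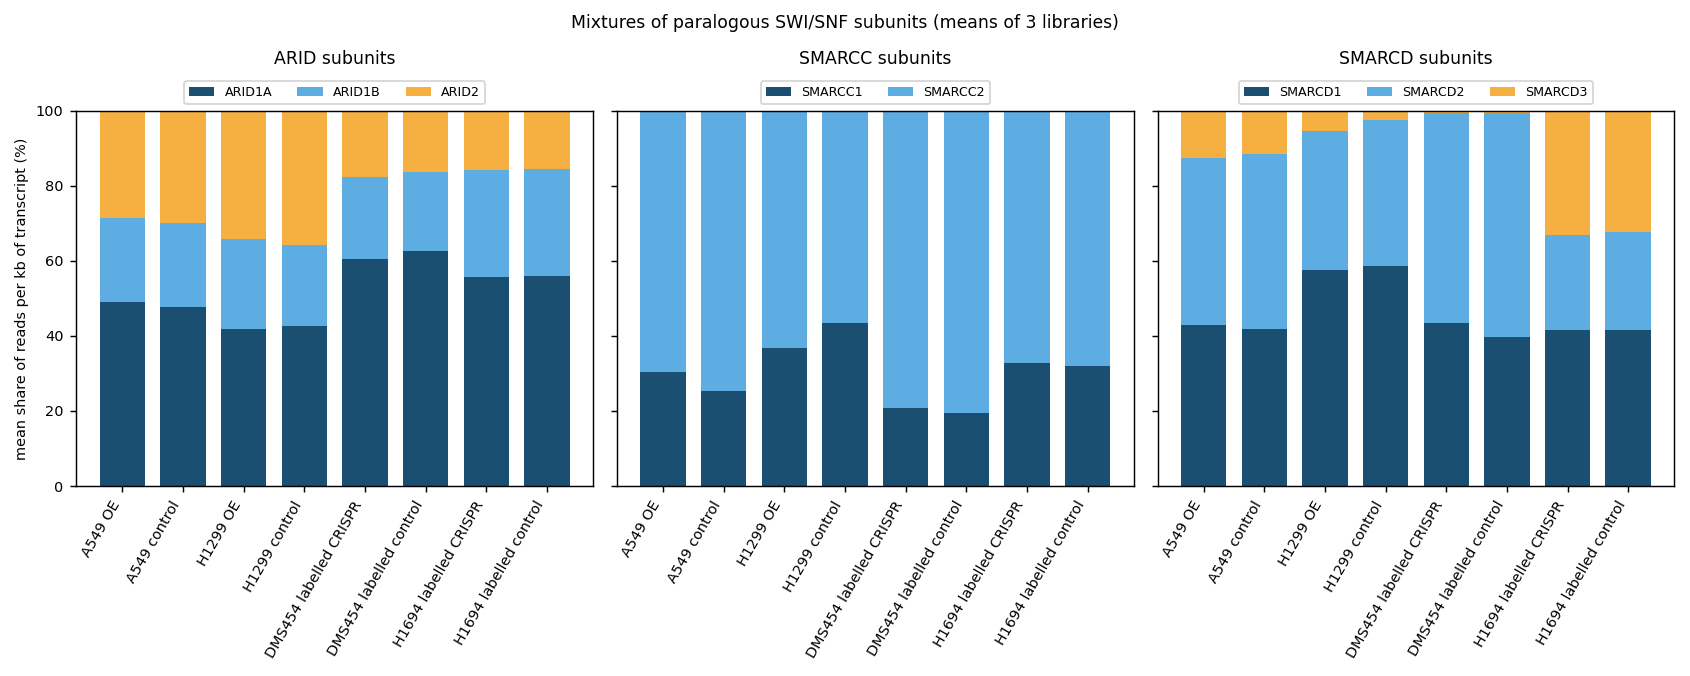
Mean share (y axis, percent; each bar is a mean of 3 libraries, drawn without its error) of each paralogue in the reads per kilobase of transcript of its group, for ARID (left), SMARCC (middle) and SMARCD (right) subunits. The SMARCC bars of A549 and H1299 shift in opposite directions between OE and control, and the SMARCD3 part is near 0 in DMS454 and 33.1% and 32.4% in the H1694 groups.

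Summed over the 10 members, the level was 315 ± 6.57 TPM in A549 OE and 299 ± 9.25 TPM in A549 controls, and 447 ± 29.2 TPM in H1299 OE and 395 ± 23.2 TPM in H1299 controls (SD, n = 3). It was 486 ± 29.2 TPM in DMS454 labelled CRISPR and 488 ± 11.4 TPM in labelled control, and 684 ± 27.0 TPM in H1694 labelled CRISPR and 683 ± 17.0 TPM in labelled control (SD, n = 3). The order of the members within a group depended on the length used. By TPM, SMARCC2 led in A549 and SMARCB1 in H1299 and DMS454 in both arms, but per kilobase of all exons SMARCC1 and SMARCC2 led in H1299 and SMARCC2 in DMS454, and SMARCB1 was 4th to 8th in every group. SMARCA4 was the lowest member of A549 by TPM, and ARID1B per kilobase of all exons. By both lengths SMARCC2 led in A549, SMARCA4 led in H1694 and SMARCD3 was the lowest member in DMS454, in both arms. SMARCA2 in H1694 was 8th in libraries labelled CRISPR by both lengths, and in labelled controls 5th by TPM and 7th per kilobase of all exons.

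The genes whose pattern was most like that of SMARCA2 were sought over the 24 libraries, each line centred on the mean of its 6 libraries, among 9801 genes. The highest Pearson correlations were those of CHD3, an ATPase of the NuRD complex, at 0.93, CD9, a tetraspanin, at 0.93, MBNL2, a splicing regulator, at 0.90, PRRG4 at 0.90 and STEAP3, a metalloreductase, at 0.89. The lowest were those of CIAO1 at -0.88, PEX5 at -0.88, PTPN21 at -0.87, EAF1 at -0.86 and ZDHHC7 at -0.86. The 24 points share 4 lines and 8 groups, so these are a description and carry no p. CHD3 held log2 fold changes of 0.02, 0.23, -0.20 and -0.12 in A549, H1299, DMS454 and H1694, and CD9 held -0.03, 0.96, -1.601 and -0.46 in the same lines. Among the SWI/SNF genes compared, the correlation with SMARCA2 was highest for SMARCC2 at 0.44, SMARCD2 at 0.34 and SS18 at 0.32. It was lowest for BCL7B at -0.66, BRD9 at -0.60 and BRD7 at -0.57. Other members included PBRM1 at 0.30, SMARCA4 at 0.07, SMARCC1 at -0.20 and ARID2 at -0.38, and SMARCD3 was not among the genes compared.

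The rest of the complex was read from a list of 21 other subunits, for which the test by limma is given. In A549, 7 of 18 tested subunits rose and none fell, where 44.4% of all tested genes were called in either direction. In H1299, 4 of 19 fell and none rose (28.8% of all tested genes). In DMS454, 1 of 20 rose (18.9%), and in H1694, 3 of 21 rose and none fell (17.6%). The median log2 fold change of the list was 0.08 in A549, -0.05 in H1299, -0.04 in DMS454 and 0.08 in H1694. Without both libraries numbered 1 the H1299 count was 4 higher and 6 lower, and with each library's GC trend removed it was 0 higher and 10 lower. No share of all genes is given with the GC trend removed, so nothing is read from that count. Without replicate 3 of the group labelled CRISPR the DMS454 count was 4 higher and 5 lower, and it was 0 when any other single library of DMS454 was left out. Without that replicate 3, 6605 genes were called in all in DMS454, against 3560 with every library. Without both libraries numbered 1, 8922 were called in all in H1299, against 4665. In H1299 the count was 2 when OE or control replicate 2 or 3 was left out, so the counts of these 2 lines moved with more than 1 library.

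DPF1, a histone-reading subunit of canonical BAF known from neurons, moved most in both overexpression lines, and in opposite directions. A549 OE libraries held 86.4, 105 and 111 normalized counts of DPF1, against 78.1, 49.4 and 68.2 in A549 controls (log2 fold change 0.64 ± 0.17, SE, limma adjusted p = 0.0015). H1299 OE libraries held 229, 342 and 306, against 816, 600.1 and 616 in H1299 controls (log2 fold change -1.21 ± 0.17, SE, limma adjusted p = 0.0016). In neither line did the groups overlap, and the difference between the lines was not tested. ACTB, an actin that sits in the ATPase module but is mostly cytoskeletal, rose in A549 by 0.43 ± 0.03 on the log2 scale (SE, limma adjusted p = 3.45e-17). BICRA, the scaffold of non-canonical BAF, rose in A549 by 0.32 ± 0.07 (SE, limma adjusted p = 0.000264). PHF10, a PBAF subunit, fell by 0.50 ± 0.11 on the log2 scale in H1299 (SE, limma adjusted p = 0.0108), and ACTL6A, the actin-like subunit of dividing cells, fell by 0.44 ± 0.08 there (SE, limma adjusted p = 0.00388). All 3 OE libraries lay above the A549 controls for ACTB and BICRA and below the H1299 controls for PHF10 and ACTL6A. The PHF10 call was lost when OE or control replicate 2 or 3 was left out, with log2 fold changes of -0.69 to -0.42 over all alternatives.

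In the small cell lines the called subunits were few. BRD9, the bromodomain subunit of non-canonical BAF, held 2147, 2169.7 and 2068 normalized counts in DMS454 libraries labelled CRISPR, against 1919.8, 1925 and 1937 in those labelled control (log2 fold change 0.14 ± 0.04, SE, limma adjusted p = 0.0426). That call was lost in 9 of 15 alternatives, including each removal of a library other than replicate 3 of the group labelled CRISPR, with adjusted p between 0.00187 and 0.148. BRD7, a bromodomain subunit of PBAF, held 3320.0, 3265 and 3192 in H1694 libraries labelled CRISPR, against 2824, 2731 and 2689.8 in those labelled control (log2 fold change 0.25 ± 0.04, SE, limma adjusted p = 0.000685). BCL11A, a zinc-finger accessory subunit, rose in H1694 by 0.24 ± 0.05 (SE, limma adjusted p = 0.00297), and ACTL6A by 0.14 ± 0.04 (SE, limma adjusted p = 0.0353), with all 3 libraries labelled CRISPR above the labelled controls for each. The ACTL6A call in H1694 was lost when any 1 library other than replicate 3 of the group labelled CRISPR was left out. Exons of ADCY7 lie opposite 42.3% of the BRD7 exon bases, and SMARCE1 shares 19.8% of its exon bases with another protein-coding gene on its own strand, so its counts are uncertain.

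**Figure D5:**
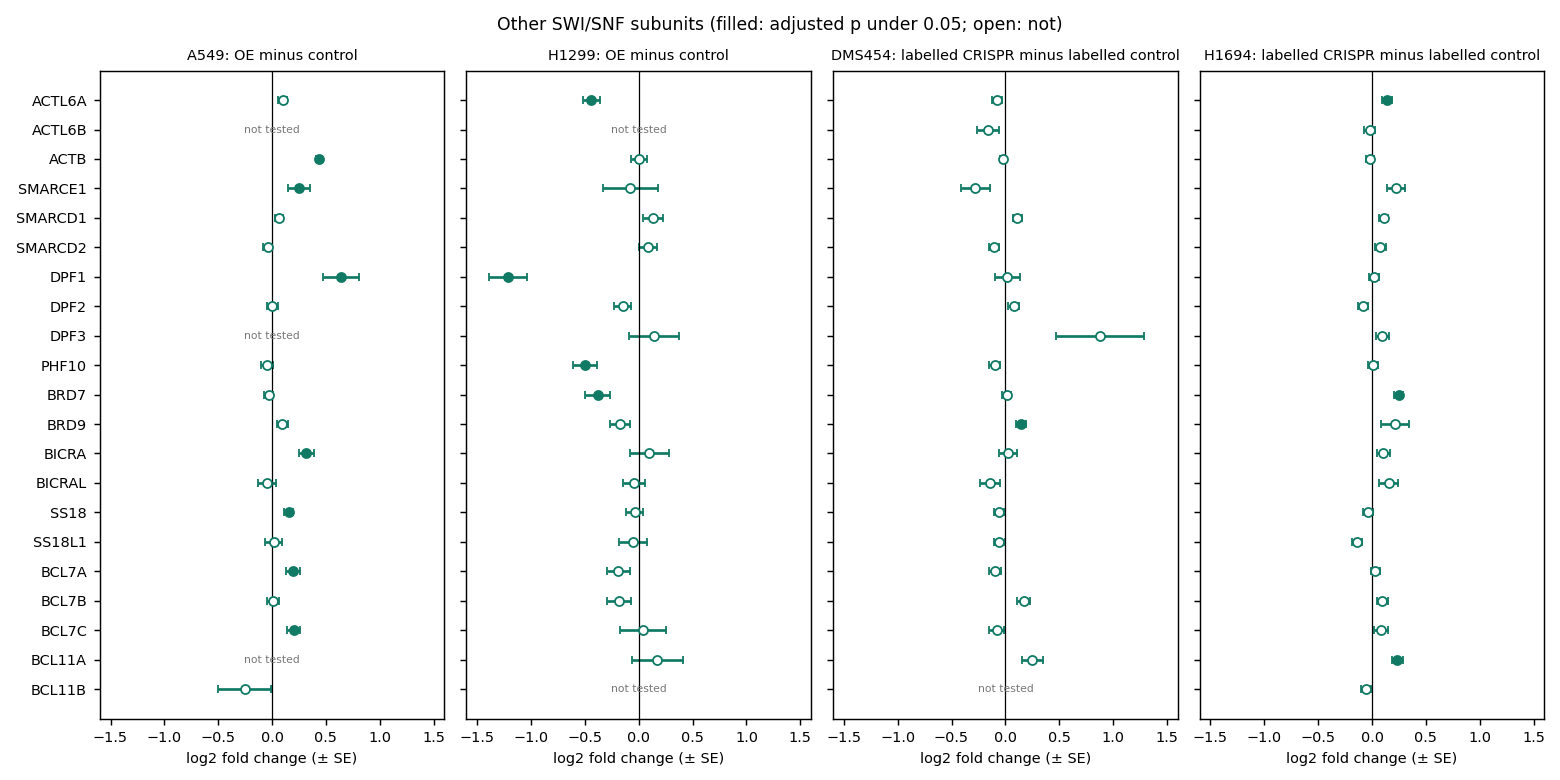
Log2 fold change with its standard error (x axis), treated minus control, of 21 other SWI/SNF subunits (rows) in 4 lines; filled points passed an adjusted p of 0.05 by limma, and genes below the filter are marked as not tested. The filled points lie to the right in A549 (7), to the left in H1299 (4) and to the right in DMS454 (1) and H1694 (3).

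Remodellers outside SWI/SNF gave a background of like genes, 20 subunits of the ISWI, CHD and INO80 families. In A549, 10 of 19 tested rose and 1 fell, where 22.5% of all tested genes rose and 21.9% fell, and the median log2 fold change of the list was 0.21. In H1299, 2 of 20 rose and 5 fell, where 13.5% of all tested genes rose and 15.3% fell. Without both libraries numbered 1 there, 4 rose and 8 fell, and 8922 genes were called in all, against 4665 with every library. In DMS454, 2 of 20 rose, where 9.15% of all rose and 9.72% fell. Without replicate 3 of the group labelled CRISPR 10 rose and 2 fell, and 6605 genes were called in all, against 3560 with every library. In H1694, 3 of 20 rose and 5 fell, where 8.73% of all rose and 8.9% fell. CHD7, a CHD remodeller known from neural crest development, rose in A549 by 0.55 ± 0.07 (SE, limma adjusted p = 7.61e-09), fell by 0.64 ± 0.08 in H1299 (SE, limma adjusted p = 0.000855) and rose in H1694 by 0.41 ± 0.07 (SE, limma adjusted p = 0.00142). BAZ1A, the partner of SMARCA5 in the ACF complex, rose in A549 by 0.38 ± 0.04 (SE, limma adjusted p = 8.32e-10), fell by 0.56 ± 0.10 in H1299 (SE, limma adjusted p = 0.00379) and rose in DMS454 by 0.27 ± 0.06 (SE, limma adjusted p = 0.00577). CHD9 rose in A549 by 0.41 ± 0.05 (SE, limma adjusted p = 6.54e-09), and CHD1 fell by 0.53 ± 0.08 in H1299 (SE, limma adjusted p = 0.00212). In every one of these the treated libraries lay all above or all below the controls. CECR2, an ISWI partner, held 911, 951 and 921 normalized counts in H1694 libraries labelled CRISPR, against 579, 652 and 599 in those labelled control (log2 fold change 0.60 ± 0.06, SE, limma adjusted p = 5.12e-06). RSF1 in DMS454 (0.20 ± 0.06, SE, limma adjusted p = 0.0322) and CHD5 in H1694 (-0.26 ± 0.08, SE, limma adjusted p = 0.0405) each lost the call when several single libraries were left out.

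Polycomb repressive complex 2, which methylates histone H3 on lysine 27 and is known to be opposed by SWI/SNF, was read from 11 genes. EED, its core scaffold, rose in A549 by 0.23 ± 0.06 (SE, limma adjusted p = 0.00129), fell by 0.42 ± 0.09 in H1299 (SE, limma adjusted p = 0.00737) and fell by 0.27 ± 0.05 in H1694 as labelled (SE, limma adjusted p = 0.00195), with groups that did not overlap in all 3 lines. In A549, 1 of 11 rose and 3 fell, where 44.4% of all tested genes were called, among them the catalytic paralogue EZH1 by 0.34 ± 0.07 (SE, limma adjusted p = 0.000152) and the accessory subunit PHF1 by 0.26 ± 0.07 (SE, limma adjusted p = 0.00185). In H1299, 1 rose and 3 fell, where 28.8% of all tested genes were called. PHF1 was the one that rose there, by 0.30 ± 0.09 (SE, limma adjusted p = 0.0302), a call lost with the GC trend removed at a log2 fold change of 0.06, and MTF2 fell by 0.36 ± 0.09 (SE, limma adjusted p = 0.0147). Leaving out OE or control replicate 2 or 3 ended the calls of PHF1 and MTF2 in H1299. In DMS454, 2 of 11 fell as labelled, where 18.9% of all tested genes were called. They were PHF19 by 0.25 ± 0.04 (SE, limma adjusted p = 0.00187) and the methyltransferase EZH2 by 0.16 ± 0.05 (SE, limma adjusted p = 0.0399). Without replicate 3 of the group labelled CRISPR 4 fell, and 6605 genes were called in all, against 3560 with every library. The EZH2 call was lost without replicate 2 of the group labelled CRISPR or without any 1 labelled control. In H1694, 1 rose, JARID2 by 0.22 ± 0.05 (SE, limma adjusted p = 0.00273), and 1 fell, where 17.6% of all tested genes were called with every library. Without replicate 1 of the group labelled CRISPR 5 rose and 1 fell. With any 1 library of H1694 left out, 1835 to 4510 genes were called in all, against 3134 with every library.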

How the data were processed

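RNA was measured in 24 libraries, 3 in each of 8 groups, grouped by their titles. Per the submitters' processing notes, CASAVA, FastQC, Trim Galore, STAR and DESeq2 were used with build hg38; for the versions, the counter, its strand setting and the annotation, none is given in the sources used here. What the authors deposited per library is a signal: read counts over size factors, beside a mean signal per gene. Their deposited tables also hold log2 fold changes with errors, a Wald score, and p-values before and after adjustment. Whole reads were recovered in every library (100% of values within 0.01).

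Genes with a mean of at least 10 in 1 group were tested per line with limma 3.58.1 (trend and robust) on log2(value + 1) in R 4.3.3, Benjamini-Hochberg adjusted over all tested genes, threshold 0.05, as raw counts were not used here; a fold change on this scale understates that of low genes. Recovered reads were also tested with limma-voom, DESeq2 1.42.0 and edgeR 4.0.16; edgeR called 7523 genes in A549, 4666 in H1299, 3513 in DMS454 and 3345 in H1694, and DESeq2 6045, 4403, 2913 and 2326 in the same lines. Other alternatives were TMM scaling, other filters and a pseudocount of 5, a GC correction, the replicate number as a block and each library left out. With 3 against 3, an exact permutation test cannot go below 0.1 and was not used. TPM used GENCODE release 29 lengths; 96.5% to 98.3% of identifiers matched. The fit was also run on simulated counts with 1 fixed dispersion and no outlying library. These replicates spread otherwise, so that run does not measure the error of the calls here.

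The members and lists were chosen with earlier results of these data known. Named are the 10 members, HEPACAM2, per line up to 3 called genes of each other list with the largest change and a mean of at least 50, and the 5 genes most and 5 least correlated with SMARCA2. The A549 and H1299 tables list no gene at 0 in every library.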

Additional observations from a re-analysis of the deposited data

Results flagged for a closer look

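Members were set apart here where all OE libraries of A549 moved one way and all OE libraries of H1299 the other; the difference between the lines was not tested. SMARCC1 stood at a log2 fold change of 0.29 in A549 and -0.083 in H1299, and its partner SMARCC2 at -0.083 in A549 and 0.32 in H1299. PBRM1 stood at 0.13 in A549 and -0.20 in H1299. The 3 values kept their sign in H1299 under every alternative. Leaving out both libraries numbered 1 is a weak check among these, as those libraries departed from their groups in opposite directions. What set them apart may then run along the treatment, which was not tested. Groups without overlap were common, 51.8% of all tested genes in A549 and 43.3% in H1299. The share of all genes that lay apart in opposite directions was not computed. SMARCC1 was called in 16 of 16 settings in A549 but 0 of 17 in H1299. SMARCC2 was called in 2 of 16 in A549 and 16 of 17 in H1299, and PBRM1 in 6 of 16 and 1 of 17. The settings refit the same libraries that chose the members, so these tallies are a description and nothing is read from them.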

How the results depend on the processing

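Over the alternatives the log2 fold change of SMARCA2, whose values chose the members, lay between 0.21 and 0.23 in A549, between 0.56 and 0.65 in H1299, between -0.91 and -0.63 in DMS454 and between -0.53 and -0.46 in H1694. Of 609 alternative values of the members, 12 moved by more than the spread between replicates, 10 of them in H1299. The cause of the differences below was not tested.

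Genes called numbered 7417 in A549 (6442 to 6987 with 1 library left out), 4665 in H1299 (2674 to 5429; 8922 without both libraries numbered 1), 3560 in DMS454 (1964 to 6605) and 3134 in H1694 (1835 to 4510). Members called in H1299 were 3, and 6 with the GC trend removed or without both libraries numbered 1. In DMS454 they were 2 (1 to 2 with 1 library left out). In H1694 they were 1, and 2 with no filter or limma-voom, 3 with edgeR and 1 to 3 with 1 library left out. Other subunits called in H1299 were 4 (10 with the GC trend removed, 10 without both libraries numbered 1, 2 to 4 with 1 left out), in DMS454 1 (0 with DESeq2 or limma-voom, 2 with the GC trend removed, 0 to 9 with 1 left out) and in H1694 3 (5 with limma-voom, 2 to 5). Other remodellers called were 7 in H1299 (12 without both libraries numbered 1, 3 to 7), 2 in DMS454 (4 with no filter, 1 with limma-voom, 1 to 12) and 8 in H1694 (3 to 8). Polycomb genes called were 4 in H1299 (8 without both libraries numbered 1, 1 to 4), 2 in DMS454 (1 with DESeq2, 1 to 4) and 2 in H1694 (2 to 6). The number of all genes called is not given with the GC trend removed, no filter or limma-voom. Nothing is read from the list counts under those settings.

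With the replicate number as a block, 1634 genes were called in H1299, with 1 other subunit, 3 other remodellers and 0 Polycomb genes; 3 members were called in H1694 and 4 other remodellers in DMS454. With each gene centred on its group mean, same-numbered libraries correlated at -0.79 to -0.44 in H1299 and at -0.18 to 0.35 in the other lines. The numbers thus do not pair the samples. In H1299, OE replicate 1 correlated with control replicates 2 and 3 at 0.51 and 0.66. Control replicate 1 correlated with OE replicates 2 and 3 at 0.61 and 0.64. The libraries numbered 1 thus departed from their groups in opposite directions. The part of this in the H1299 differences was not tested.

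The SMARCA2 share of ATPase reads was higher with no length or the coding length: 68.6% and 69.8% in A549 OE, 68.7% and 69.9% in A549 controls, 57.6% and 59.0% in H1299 OE, 47.5% and 48.9% in H1299 controls, 15.0% and 15.7% in DMS454 labelled control, 18.3% and 19.1% in H1694 labelled CRISPR and 25.3% and 26.4% in H1694 labelled control. With the transcript of the longest coding sequence, chosen after seeing the data, it was 46.0% in H1299 controls, 14.2% in DMS454 labelled control, 17.3% in H1694 labelled CRISPR and 24.1% in H1694 labelled control.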
